A study of Macaca mulatta with 449 samples.

Results

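The genes described here are 8 genes of the cells that line and wrap brain capillaries, 6 of endothelial cells (FLT1, KDR, TEK, PECAM1, VWF and SLC2A1) and 2 of pericytes (PDGFRB and RGS5), out of 30807 genes in the count table. They were taken by symbol from a list of 9 genes. The ninth, ABCB1, was not analysed here because no row of the table could be paired with its symbol. RNA was sequenced after depletion of ribosomal RNA in 51 brain sub-regions of 8 rhesus macaques. Each animal gave 1 sample per sub-region, so the animal is the replicate. No treatment of the animals is named in the labels. The 4 males comprised 2 young and 2 mid-aged animals, as did the 4 females, young meaning 3.2 to 5 years old and mid-aged 9.8 or 10 years old. They carry the numbers of the sample labels, with animals 4, 7, 8 and 10 young, animals 2, 3, 6 and 11 mid-aged, and animals 4, 6, 10 and 11 female. The sub-regions fell into 16 region groups. The 31 cortical sub-regions formed the cortex, and the other 20 formed the olfactory bulb (OB), corpus callosum (CC), the entorhinal with the perirhinal cortex (PA), thalamus (THA), hypothalamus (HTHA), medulla oblongata (MO), pons (PON), cerebellum (CB), ventral tegmental area (VTA), substantia nigra (SN), amygdala (AMY), hippocampus (HIP), striatum (STR), globus pallidus (GP) and pituitary (PIT).

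Brain capillaries are tubes of endothelial cells joined by tight junctions, with pericytes embedded in their basement membrane, and together with the end-feet of astrocytes they form the blood-brain barrier. Endothelial cells read VEGF through the receptors KDR (VEGFR2), which carries most of the growth signal, and FLT1 (VEGFR1), which binds VEGF tightly and signals weakly. They read angiopoietins through TEK (TIE2), adhere to each other through PECAM1 (CD31), store and release the clotting protein VWF, and carry glucose into the brain through SLC2A1 (GLUT1). Pericytes are recruited through PDGFRB, the receptor of endothelial PDGFB, and express RGS5, a regulator of G-protein signalling. The anterior pituitary lies outside the barrier, and its capillaries are fenestrated.

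The total count of a sample lay between 7784678 and 31083490 (median 10698602), and every gene of the set had counts in every sample. The lowest and highest raw counts of a sample were 76 and 1499 for FLT1, 28 and 828 for KDR, 34 and 283 for TEK, 88 and 813 for PECAM1, 12 and 684 for VWF, 296 and 4457 for SLC2A1, 152 and 1137 for PDGFRB and 30 and 1604 for RGS5. The lowest counts leave VWF, KDR, RGS5 and TEK the least precise in a single sample. Levels are given as CPM, the counts divided by a library size scaled with the TMM method of edgeR and put on the usual CPM scale, and since CPM are not divided by gene length they compare regions of 1 gene and not genes with each other. Differences are log2 fold changes (log2FC) with their standard error (SE) from edgeR's quasi-likelihood test with the animal as a block, and FDR is the Benjamini-Hochberg adjusted p-value over all genes tested. In pieces of bulk tissue, more vascular cells and more RNA of a gene per vascular cell cannot be told apart. Single libraries stood apart by marker genes. The summed anterior pituitary markers reached 350642 CPM in the pituitary of animal 6 and 239315 CPM in that of animal 11, against 30269.9 to 85237.5 CPM in the other pituitaries. The summed neuron markers were at 382 CPM in the medulla of animal 6, against 5592 to 10003 CPM in the other medullas, and at 9040 CPM in the hypothalamus of animal 6, against 3929 to 6556 CPM. The differences of the 8 genes from the cortex in these groups are given with and without these animals, while counts and values of the other gene lists include all 8 animals.

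Each of the 8 genes differed between the 16 region groups (edgeR, FDR from 4.98e-49 for SLC2A1 to 1.89e-12 for TEK), as did 99.6% of all genes tested. The 15 other groups were each compared with the cortex, so that all 15 comparisons share the cortical samples. Of the 120 pairs of a gene and a group, 54 were higher than in the cortex at FDR < 0.05 and 20 were lower, where 28.9% and 31.9% of the pairs over all 17086 genes tested were. With a difference over 2-fold as well, 8 pairs were higher and 5 were lower, beside 11.9% and 12.7% of the pairs over all genes. These 13 pairs were VWF in CC, GP, VTA, SN and MO, SLC2A1 in VTA and KDR in PIT and OB on the higher side, and FLT1, SLC2A1 and RGS5 in PIT and RGS5 in HIP and AMY on the lower side. Past both limits, the shares of all genes that were higher and lower were 20.5% and 24.3% in PIT, 19.4% and 24.8% in CC, 16.6% and 18.4% in GP, 15.3% and 13.4% in MO, 14.1% and 14.4% in VTA, 13.8% and 14.2% in SN, 12.2% and 10.5% in OB, 5.98% and 6.66% in HIP, and 5.1% and 4.69% in AMY. In the other groups, where none of the 8 genes passed both, they were 10.1% and 15.7% in CB, 11.3% and 13.9% in PON, 9.59% and 10.3% in THA, 10.7% and 8.08% in HTHA, 8.77% and 8.34% in STR, and 5.39% and 3.63% in PA. The genes did not share 1 direction. VWF was higher at FDR < 0.05 in 11 of the 15 groups and lower in 1, PECAM1 in 10 and 2, SLC2A1 in 9 and 2, KDR in 8 and 0, TEK in 7 and 1, FLT1 in 5 and 4, PDGFRB in 4 and 4, and RGS5 in 0 and 6.

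**Figure D1:**
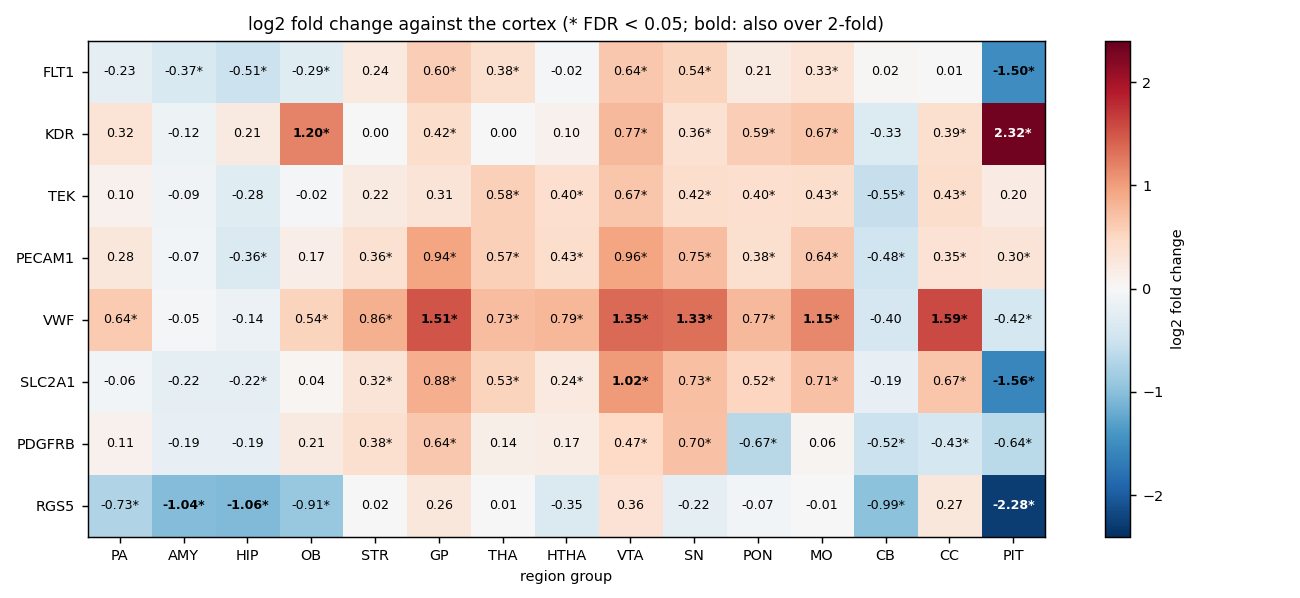
log2 fold change of each gene (rows) in 15 region groups (columns) against the cortex, from edgeR with the animal as a block. Red is higher and blue is lower than in the cortex, an asterisk marks FDR < 0.05 and bold marks a difference over 2-fold as well. The VWF row is red across the brainstem and white matter groups, and the pituitary column holds both the highest value, 2.32 for KDR, and the lowest, −2.28 for RGS5.

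The pair of VEGF receptors took opposite directions in the pituitary. KDR lay between 23.05 and 54.4 CPM in the 8 pituitaries (median 29.8) and between 5.63 and 8.74 CPM in the cortex (median 6.65). FLT1 lay between 7.13 and 16.8 CPM in the pituitaries (median 15.2) and between 31.9 and 53.5 CPM in the cortex (median 39.5). Neither gene's pituitary range overlapped its cortical range. The log2FC in the pituitary was 2.32 ± 0.17 (SE, FDR = 4.42e-25) for KDR, 4.98-fold higher, and −1.50 ± 0.14 (SE, FDR = 1.11e-18) for FLT1, 2.82-fold lower. Without animal 6 and its high hormone transcripts the values were 2.23 for KDR and −1.52 for FLT1, and without animal 11 they were 2.39 and −1.46.

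KDR was also higher in the olfactory bulb, where the 8 animals lay between 10.4 and 23.7 CPM (median 15.7), all above the cortex. Its log2FC there was 1.198 ± 0.16 (SE, FDR = 2.42e-10). KDR was higher in VTA (0.77), MO (0.67) and PON (0.59) too, and in no group did it pass the test on the lower side. FLT1 behaved otherwise outside the pituitary. It was highest in VTA (44.8 to 81.2 CPM), GP (48.6 to 75.5 CPM) and SN (38.4 to 76.1 CPM), with log2FC of 0.64, 0.60 and 0.54, and it was lower than in the cortex in HIP (−0.51), AMY (−0.37) and OB (−0.29). In the olfactory bulb, as in the pituitary, KDR was thus higher and FLT1 lower than in the cortex. The FLT1 difference in the olfactory bulb was small, and its range (20.7 to 47.5 CPM) overlapped the cortex. Within an animal FLT1 was lower there in 8 of 8 animals, with log2 differences of −0.84 to −0.03. Library totals without TMM moved the median gene there by 0.24 against the cortex. The mean of FLT1 in the olfactory bulb then came next below that of the cortex.

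**Figure D2:**
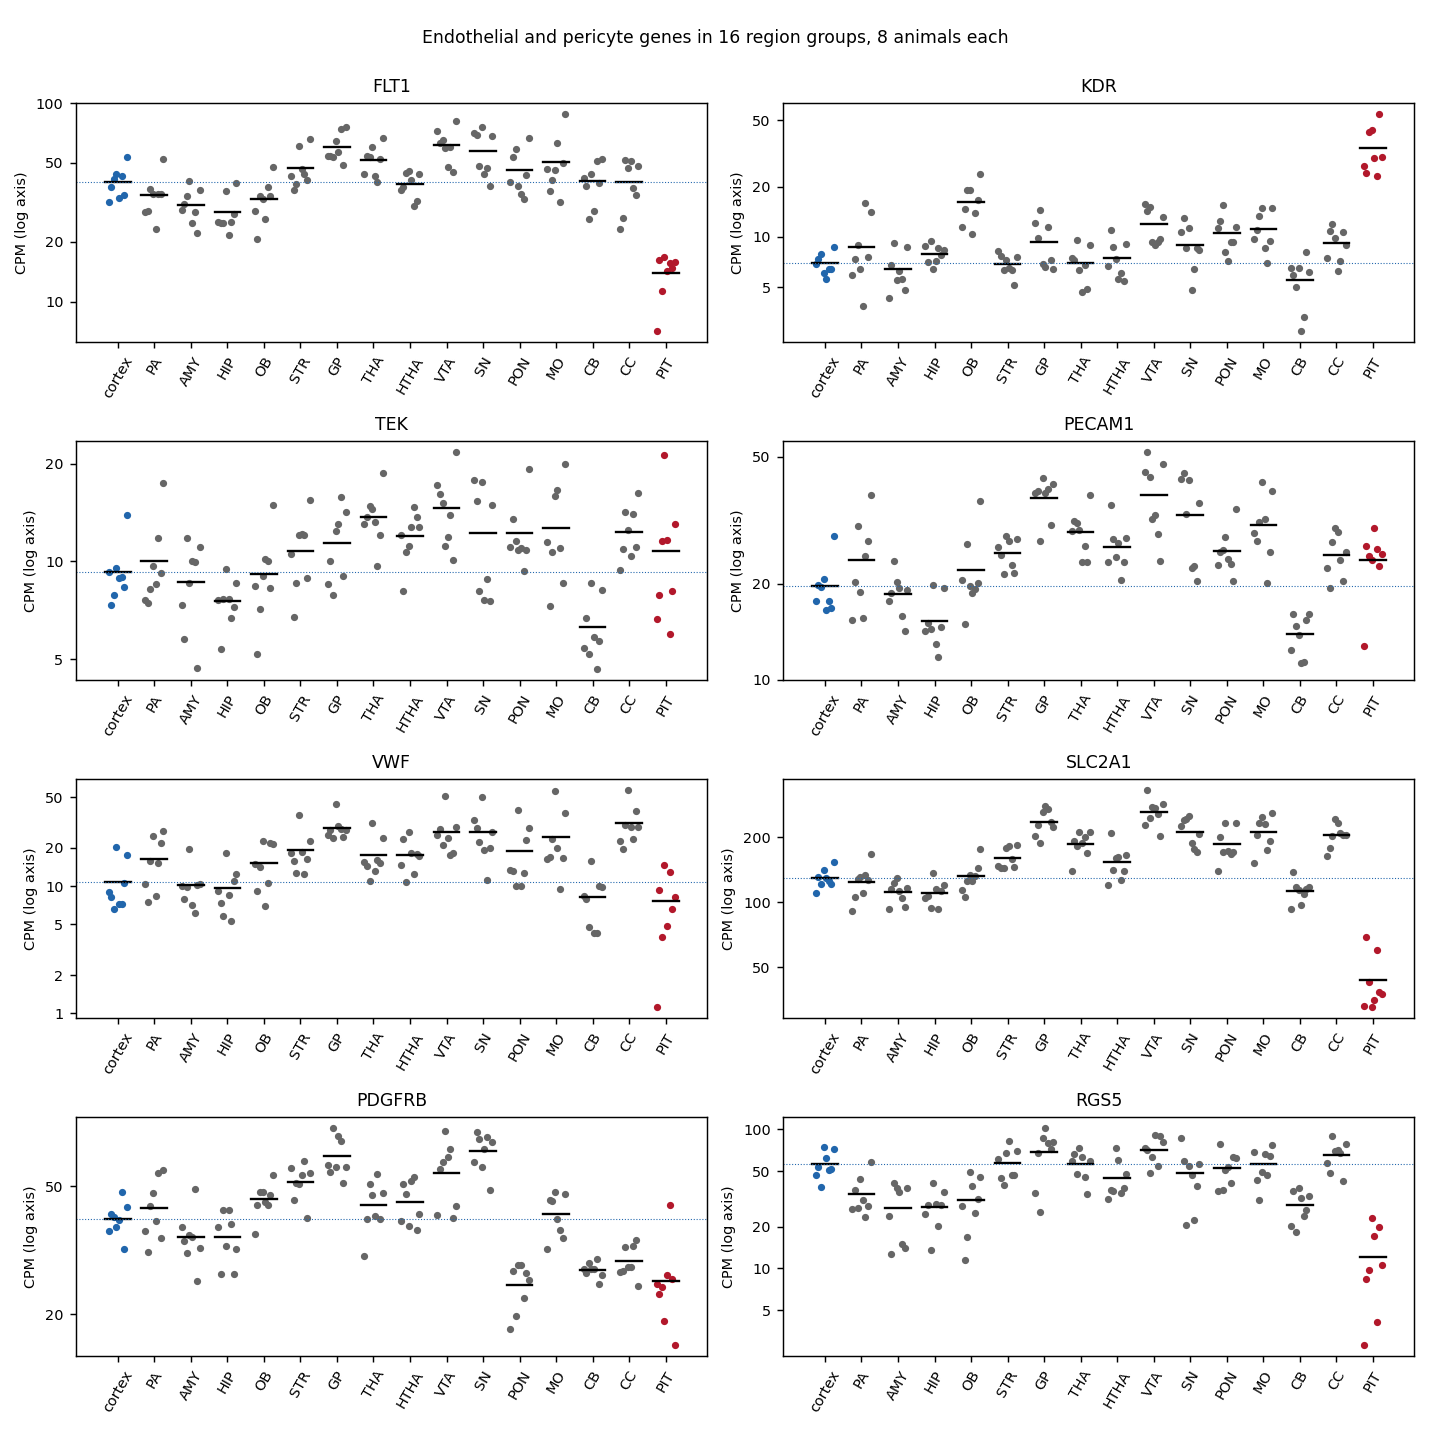
CPM (log axis) of the 8 genes in the 16 region groups, 1 point per animal and a black line for the mean of 8 animals, with the cortex in blue, its mean as a dotted line, and the pituitary in red. KDR at 23.05 to 54.4 CPM stands above every other group's median in the pituitary, while FLT1, SLC2A1 and RGS5 are lowest there.

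TEK varied less between regions than the VEGF receptors did, and no group differed from the cortex by over 2-fold. Its level was 7.33 to 13.9 CPM in the cortex (median 8.92), 10.1 to 21.8 CPM in VTA (median 14.5), 9.69 to 18.8 CPM in THA (median 13.5) and 4.67 to 8.56 CPM in CB (median 5.77). The ranges of these groups overlapped that of the cortex. Within an animal, TEK was above its level in the cortex in 8 of 8 animals in VTA and in THA, and below it in 8 of 8 in CB. By the test TEK was higher in VTA (log2FC 0.67 ± 0.15 SE, FDR = 5.27e-05) and THA (0.58 ± 0.15 SE, FDR = 0.000655) and lower in CB (−0.55 ± 0.15 SE, FDR = 0.000856). In the pituitary, where its fellow receptors moved apart, TEK lay between 5.98 and 21.3 CPM (median 9.83) with a log2FC of 0.20 ± 0.15 (SE, FDR = 0.224), of 0.01 without animal 6, its highest library, and of 0.24 without animal 11.

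PECAM1 ranged from 16.6 to 28.3 CPM in the cortex (median 18.6), from 23.6 to 51.8 CPM in VTA (median 38.1) and from 27.3 to 43.03 CPM in GP (median 38.8). Its log2FC was 0.96 ± 0.13 (SE, FDR = 7.01e-11) in VTA and 0.94 ± 0.13 (SE, FDR = 7.84e-11) in GP, both close to the 2-fold limit. Under 6 of the alternatives tried its value in VTA crossed that limit, up to 1.05 without animal 10. Cerebellum held the lowest levels, 11.3 to 16.1 CPM, all below the cortex (log2FC −0.48 ± 0.13 SE, FDR = 0.000450). The pituitary value of 0.30 ± 0.13 (SE, FDR = 0.0233) lay between 0.19 and 0.50 over 14 other settings and passed the test in 11 of them, among them those without animal 6 (0.31) and without animal 11 (0.38).

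VWF, the clotting protein of the endothelial storage granules, had the widest differences on the higher side outside the pituitary. Its level was 6.65 to 20.2 CPM in the cortex (median 8.65), 19.4 to 56.9 CPM in CC (median 29.1) and 23.7 to 43.8 CPM in GP (median 27.5). It was 17.6 to 50.9 CPM in VTA (median 24.6), 11.2 to 50.4 CPM in SN (median 24.4) and 9.42 to 55.6 CPM in MO (median 18.5). Of these groups GP alone did not overlap the cortex, in which animals 6 and 11 stood far above the median. Within an animal, VWF was above its level in the cortex in 8 of 8 animals in each of CC, GP, VTA, SN and MO. The log2FC against the cortex was 1.59 ± 0.19 (SE, FDR = 1.47e-12) in CC, 1.51 ± 0.19 (SE, FDR = 1.36e-11) in GP, 1.35 ± 0.19 (SE, FDR = 1.03e-09) in VTA, 1.33 ± 0.19 (SE, FDR = 1.79e-09) in SN and 1.15 ± 0.19 (SE, FDR = 9.60e-08) in MO. Without animal 6, whose medulla was nearly without neuron markers and held the highest VWF of that group, the medulla value was 1.11. VWF was also higher in STR (0.86), HTHA (0.79), PON (0.77), THA (0.73), PA (0.64) and OB (0.54). In the pituitary it lay between 1.13 and 14.7 CPM (median 7.39), and the log2FC of −0.42 ± 0.20 (SE, FDR = 0.0440) did not hold: it passed in 4 of 14 other settings, and without animal 2, the lowest pituitary, it was −0.28 (FDR = 0.202). It was −0.43 (FDR = 0.0751) without animal 6 and −0.32 (FDR = 0.174) without animal 11.

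SLC2A1, the glucose transporter, separated the region groups most. It lay between 110.2 and 153.5 CPM in the cortex (median 128), between 203 and 332 CPM in VTA (median 265), between 188 and 279 CPM in GP (median 232) and between 32.7 and 69.3 CPM in the pituitary (median 37.997). None of these 3 groups overlapped the cortex, nor did CC or SN. The log2FC was 1.02 ± 0.10 (SE, FDR = 1.51e-17) in VTA, 0.88 in GP, 0.73 in SN, 0.71 in MO, 0.67 in CC and −1.56 ± 0.10 (SE, FDR = 2.55e-29) in the pituitary, 2.96-fold lower. The pituitary value was −1.51 without animal 6 and −1.50 without animal 11. The VTA value fell just under 2-fold in a pair of settings, to 0.94 with the study's own detection rule as the filter and to 0.98 without animal 3. Over the 51 sub-regions, 78.4% of the variance of log2 SLC2A1 levels lay between sub-regions and 8.14% between animals, where the median gene had 61.7% and 10.4%.

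The pericyte genes moved together only in part, both being lower than in the cortex in PIT and CB. PDGFRB was highest in SN (48.5 to 73.7 CPM, median 66.9) and GP (50.99 to 75.7 CPM, median 57.7), neither overlapping the cortex (31.8 to 47.8 CPM, median 39.6). It was lowest in PON (17.98 to 28.5 CPM, median 26.2), again without overlap. The log2FC was 0.70 ± 0.11 (SE, FDR = 4.91e-09) in SN, 0.64 ± 0.11 (SE, FDR = 4.27e-08) in GP and −0.67 ± 0.11 (SE, FDR = 2.96e-08) in PON. PDGFRB was higher in VTA (0.47) and STR (0.38) and lower in PIT (−0.64), CB (−0.52) and CC (−0.43). The pituitary value of PDGFRB was −0.61 without animal 6 and −0.55 without animal 11. In CC and PON it was thus lower than in the cortex while VWF and SLC2A1 were higher.

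RGS5 passed the test against the cortex only on the lower side. It lay between 38.4 and 74.7 CPM in the cortex (median 53.1), between 2.81 and 23.2 CPM in the pituitary (median 10.2), between 12.6 and 41.01 CPM in AMY (median 29.4) and between 13.6 and 41.3 CPM in HIP (median 28.4). The pituitary lay wholly below the cortex, and AMY and HIP overlapped it by their highest animals. Within an animal, RGS5 was below its level in the cortex in 8 of 8 animals in HIP and in 7 of 8 in AMY. The log2FC was −2.28 ± 0.23 (SE, FDR = 1.34e-16) in the pituitary, 4.85-fold lower (−2.396 without animal 6 and −2.21 without animal 11), −1.06 ± 0.21 (SE, FDR = 1.50e-05) in HIP and −1.04 ± 0.22 (SE, FDR = 3.73e-05) in AMY. In AMY the difference fell just under 2-fold with DESeq2 size factors (−0.996) and without animal 3 (−0.94), 8 (−0.95) or 10 (−0.95), while the FDR stayed under 0.05. RGS5 was lower in CB (−0.99), OB (−0.91) and PA (−0.73) as well, each in 8 of 8 animals, and in CB without overlap with the cortex. Its highest mean was in VTA, at 48.5 to 91.6 CPM, where the log2FC of 0.36 ± 0.21 (SE, FDR = 0.128) did not pass.

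Other vascular genes were read from lists beside the 8 genes. In the pituitary, 2 of 12 other general endothelial genes were higher than in the cortex at FDR < 0.05 and 7 were lower (median log2FC −0.58), where 39.6% and 40.8% of all genes were and the median gene was at −0.02. The lower ones included PODXL, a sialomucin of the luminal surface (−1.31), and NOS3, endothelial nitric oxide synthase (−0.94), while CDH5, the cadherin of endothelial junctions, was at 0.09 (FDR = 0.514). Of 12 blood-brain barrier genes 2 were higher and 8 lower (median −0.51). The lower ones included SLCO1A2, an organic anion transporter (−3.51), LEF1, a transcription factor of Wnt signalling (−2.68), and TFRC, the transferrin receptor (−2.23). The 2 higher ones, LSR (2.23) and OCLN (1.65), encode junction proteins that epithelial cells also have. Of 5 tested genes of fenestrated endothelium 2 were higher and 2 lower (median 0.23). PLVAP, the protein of fenestral diaphragms, lay between 12.1 and 40.2 CPM in the pituitaries (median 21.99) and between 1.914 and 4.68 CPM in the cortex (median 4.17), without overlap, with a log2FC of 2.81 ± 0.18 (SE, FDR = 4.43e-28).

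Among 9 ligands of the receptors, 5 were higher in the pituitary and 2 lower (median 0.66). VEGFC, a ligand of KDR and of the lymphatic receptor, was at 3.52, and PGF, which binds FLT1, was at 1.68. PDGFD, a ligand of PDGFRB, was at 3.30, while PDGFB, the main one, was at −3.01 and VEGFA at −0.42. Of 9 other pericyte genes 3 were higher and 5 lower (median −0.63), with ANPEP (2.26), CD248 (1.3003) and NOTCH3 (1.15) higher and CSPG4, which oligodendrocyte precursors also express, lower (−2.36). The pituitary differed from the cortex in its other cells too. Its 6 astrocyte markers summed to 21.6 to 122 CPM against 2830 to 3528 CPM, its 8 neuron markers to 418 to 556 CPM against 12021 to 14034 CPM, its 5 oligodendrocyte markers to 15.99 to 50.5 CPM against 2630 to 3404 CPM, its 7 fibroblast markers to 357 to 647 CPM against 222 to 269 CPM, and its 5 anterior pituitary markers to over 30269.8 CPM in every animal against at most 37.3 CPM. The highest gene of the fibroblast list was DCN in the pituitary and PDGFRA, which oligodendrocyte precursors also express, in the cortex. The part of these other cells in the differences was not tested.

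In the midbrain and pallidal groups the endothelial and pericyte lists had more genes higher than lower, and the fenestrated list did not. In VTA 7 of the 8 genes were higher than in the cortex and 0 lower (median 0.72), where 30.7% of all genes were higher and 35.9% lower and the median gene was at −0.06. In SN the counts were 7 and 0 (median 0.62), beside 31.8% and 36.3%, and in GP 6 and 0 (median 0.62), beside 34.5% and 38.1%. RGS5 passed in none of these groups. The other general endothelial genes gave 10 higher and 0 lower in VTA (median 0.96), 10 and 0 in SN (0.74) and 9 and 1 in GP (0.52). Examples in VTA were TIE1, the partner receptor of TEK (1.35), MMRN2 (1.26) and ROBO4 (1.15). The other pericyte genes gave 6 higher in VTA (median 1.04), 7 in SN (0.83) and 7 in GP (0.79) and 0 lower, with MCAM, a surface adhesion molecule, at 1.77 and the transcription factor FOXS1 at 1.54 in VTA. PGF was the highest ligand in VTA (3.44). Of the 12 barrier genes 9 were higher and 2 lower in VTA (median 0.94), and 9 and 3 in both SN and GP (median 0.69 in each). Of the 5 tested genes of fenestrated endothelium 1 was higher and 2 were lower in each of the 3 groups (median −0.12 in VTA, −0.18 in SN and −0.28 in GP), PLVAP being the higher one (0.53, 0.94 and 1.43) and EHD3 among the lower ones. The 6 genes of that list with a row summed to 139 to 167 CPM in VTA, below the 181 to 250 CPM of the cortex. EHD3 was the highest of the 6 in both, at a mean of 63.7 CPM in VTA and 110 CPM in the cortex. In the pituitary the same 6 genes summed to 162 to 509 CPM, overlapping the cortex. The sum therefore does not tell fenestrated capillaries from others. Oligodendrocyte markers moved with these groups, summing to 41518 to 64924 CPM in VTA, 16136 to 33427 CPM in SN and 49079.8 to 104816 CPM in GP, against at most 3404 CPM in the cortex. Microglia markers summed to 105 to 205 CPM in VTA, 145 to 314 CPM in SN and 211 to 421 CPM in GP, all above the 55.5 to 87.1 CPM of the cortex. Astrocyte markers summed to 3978 to 8068 CPM in SN and 4722 to 7038 CPM in GP, above the 2830 to 3528 CPM of the cortex, and to 1213 to 5618 CPM in VTA. Neuron markers were below the 12021 to 14034 CPM of the cortex in each, at 6111 to 10187 CPM in VTA, 5803 to 9736 CPM in SN and 2104 to 5550.0 CPM in GP. Blood markers summed to 6.76 to 21.5 CPM in VTA and 3.35 to 10.3 CPM in the cortex. This sum rests on HBA, at a mean of 11.6 CPM in VTA and 5.49 CPM in the cortex. In VTA 5 of the 6 blood genes had at most 3 counts in every animal. The part of all these cell markers was not tested.

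The corpus callosum and the medulla had higher VWF and SLC2A1 without a higher pericyte gene, as did PON, THA and HTHA. In CC 5 of the 8 genes were higher and 1 lower (median 0.37), beside 37.5% and 41.4% of all genes, and in MO 6 and 0 (median 0.54), beside 31.5% and 35.7%. Of the other general endothelial genes 5 were higher and 2 lower in CC (median 0.30), with TIE1 at 1.31 and EGFL7, a secreted endothelial factor, at −0.77. Of the barrier genes 6 were higher and 3 lower in CC (median 0.34), led by SLCO1A2 (3.76), and PLVAP was also higher there (1.16). MCAM was at 2.95 in CC, while the other pericyte genes gave 4 higher and 1 lower (median 0.09). Oligodendrocyte markers summed to 90915 to 119723 CPM in CC and 29098 to 91286.6 CPM in MO, and astrocyte markers to 5318 to 7749 CPM in CC and 4531 to 14436 CPM in MO. Their part was not tested. Without animal 6 the medulla values of the 6 higher genes were 0.37 for FLT1, 0.58 for KDR, 0.40 for TEK, 0.59 for PECAM1, 1.11 for VWF and 0.70 for SLC2A1, all with FDR under 0.05.

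Smaller differences were found in the rest of the forebrain and in the pons. In THA 5 of the 8 genes were higher and 0 lower (median 0.45), beside 26.2% and 30.6% of all genes, in HTHA 4 and 0 (median 0.21), beside 26.7% and 29.5%, and in STR 4 and 0 (median 0.28), beside 26.4% and 26.6%. In PON they were 5 and 1 (median 0.39), beside 29.4% and 33.6%, with PDGFRB the lower one, and in PA 1 and 1 (median 0.11), beside 16.3% and 19.3%, with VWF higher and RGS5 lower. Without the hypothalamus sample of animal 6, VWF was at 0.84, PECAM1 at 0.46, TEK at 0.44 and SLC2A1 at 0.25 in HTHA, all with FDR under 0.05. Oligodendrocyte markers summed to 11871 to 24455 CPM in THA, 29258 to 50978.5 CPM in PON, 6758 to 12149 CPM in STR and 3400 to 34770 CPM in HTHA, against 2630 to 3404 CPM in the cortex. Microglia markers summed to 111 to 182 CPM in THA, 114 to 193 CPM in STR, 118 to 162 CPM in HTHA and 82.3 to 180 CPM in PON, against 55.5 to 87.1 CPM. Their part was not tested.

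In the cerebellum the set stood on the lower side, 0 higher and 4 lower (median −0.44), beside 32.1% and 34.4% of all genes. FLT1 was at 0.02 ± 0.13 (SE, FDR = 0.888) there. Of the other general endothelial genes 11 of 12 were lower (median −0.80), among them EGFL7 (−1.41), NOS3 (−1.34) and the transcription factor ERG (−1.10), and the 5 tested genes of fenestrated endothelium were lower as well (median −0.997). Barrier genes gave 2 higher and 8 lower (median −0.52) and other pericyte genes 2 and 2 (median −0.13). In HIP the 8 genes gave 0 higher and 4 lower (median −0.25), beside 21.1% and 22.8%, and in AMY 0 and 2 (median −0.16), beside 18.2% and 20%. In the olfactory bulb they gave 2 higher (KDR and VWF) and 2 lower (FLT1 and RGS5), beside 31.3% and 32.9%. There 6 of the 9 ligands were higher and 0 lower (median 0.87), with VEGFC at 2.56 and PGF at 2.37, and 7 of the other pericyte genes were higher and 1 lower (median 0.93), with CD248 at 2.18. Fibroblast and meningeal markers summed to 422 to 753 CPM in the olfactory bulb, above the 222 to 269 CPM of the cortex. Their highest gene was FN1 in the olfactory bulb and PDGFRA in the cortex, and their part was not tested.

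The order of the groups was compared between neighbours with an exact two-sided sign-flip permutation test over the 8 animals on log2(CPM + 1), for 120 neighbouring pairs. The smallest p such a test can give is 0.00781, reached by FLT1 in HIP over PIT, KDR in PIT over OB and SLC2A1 in HIP over PIT, each in the same direction in 8 of 8 animals. After Benjamini-Hochberg adjustment over the 120 pairs the smallest value was 0.312. With so high a smallest p, single pairs cannot pass an adjustment over 120 pairs, so the test leaves unsaid which neighbours differ, and 11 pairs had an unadjusted p under 0.05. The ranges of SLC2A1 did not overlap between HIP (92.6 to 136.5 CPM) and PIT (32.7 to 69.3 CPM), nor did those of FLT1 (21.6 to 39.7 and 7.13 to 16.8 CPM). From the highest mean down, FLT1 ran VTA, GP, SN, THA, MO, STR, PON, cortex, CB, HTHA, CC, PA, OB, AMY, HIP and PIT. KDR ran PIT, OB, VTA, MO, PON, GP, CC, SN, PA, HIP, HTHA, cortex, THA, STR, AMY and CB. TEK began with VTA, THA and CC and ended with AMY, HIP and CB, and PECAM1 began with VTA, GP and SN and ended with the same 3 groups. VWF ran from CC, GP and VTA to HIP, CB and PIT, and SLC2A1 from VTA, GP and SN to AMY, HIP and PIT. PDGFRB ran from SN, GP and VTA to CB, PIT and PON, and RGS5 from VTA, CC and GP to HIP, AMY and PIT.

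Within the cortex, 7 of the 8 genes differed between the 31 sub-regions at FDR < 0.05, as did 75% of all genes tested, and KDR did not (FDR = 0.0538). Without the animal block the count was 4. The inferior precentral gyrus (IPrCG) had the highest mean of the 31 for 7 of the 8 genes, and the posterior superior frontal gyrus (SFG) for RGS5. The anterior superior occipital gyrus (aSOG) had the lowest mean for 4 of the 8. VWF spread most, from 6.37 ± 2.97 CPM (SD, n = 8) in aSOG to 16.7 ± 8.71 CPM (SD, n = 8) in IPrCG, a ratio of 2.62 whose ends overlap by their SD. That SD is the spread over animals and does not measure the difference within an animal. FLT1 went from 31.7 ± 5.93 CPM (SD, n = 8) in aSOG to 58.9 ± 15.4 CPM (SD, n = 8) in IPrCG, a ratio of 1.86, and KDR spread least, a ratio of 1.41. Astrocyte markers summed to 1965 to 3171 CPM in aSOG and 3439 to 4296 CPM in IPrCG, and neuron markers to 13345 to 15879 CPM and 8884 to 12566 CPM. Their part was not tested.

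The 5 lobes differed for 6 of the 8 genes, beside 60.2% of all genes, with TEK (FDR = 0.125) and SLC2A1 (FDR = 0.507) not passing. The occipital lobe, 3 sub-regions, was compared with the mean of the other 4 lobes, and 4 of the 8 genes were lower there, beside 27.5% of all genes. The log2FC was −0.34 ± 0.08 (SE, FDR = 0.000806) for VWF, −0.23 ± 0.05 (SE, FDR = 0.000521) for PECAM1, −0.22 ± 0.06 (SE, FDR = 0.00118) for KDR and −0.16 ± 0.05 (SE, FDR = 0.00355) for FLT1. No gene was higher, beside 27.3% of all genes. PDGFRB had the only positive value, 0.09 ± 0.04 (SE, FDR = 0.0678), which passed under 5 alternatives, at 0.10 to 0.13. Without the animal block no gene passed, and the 4 values were −0.30, −0.21, −0.20 and −0.15. Of the other general endothelial genes 1 was higher and 5 were lower in the occipital lobe (median −0.11), of the barrier genes 2 and 6 (−0.13), of the ligands 0 and 5 (−0.28) and of the other pericyte genes 2 and 5 (−0.32). All 5 oligodendrocyte markers were higher there (median 0.50) and all 3 microglia markers were lower (−0.62), and their part was not tested.

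**Figure D3:**
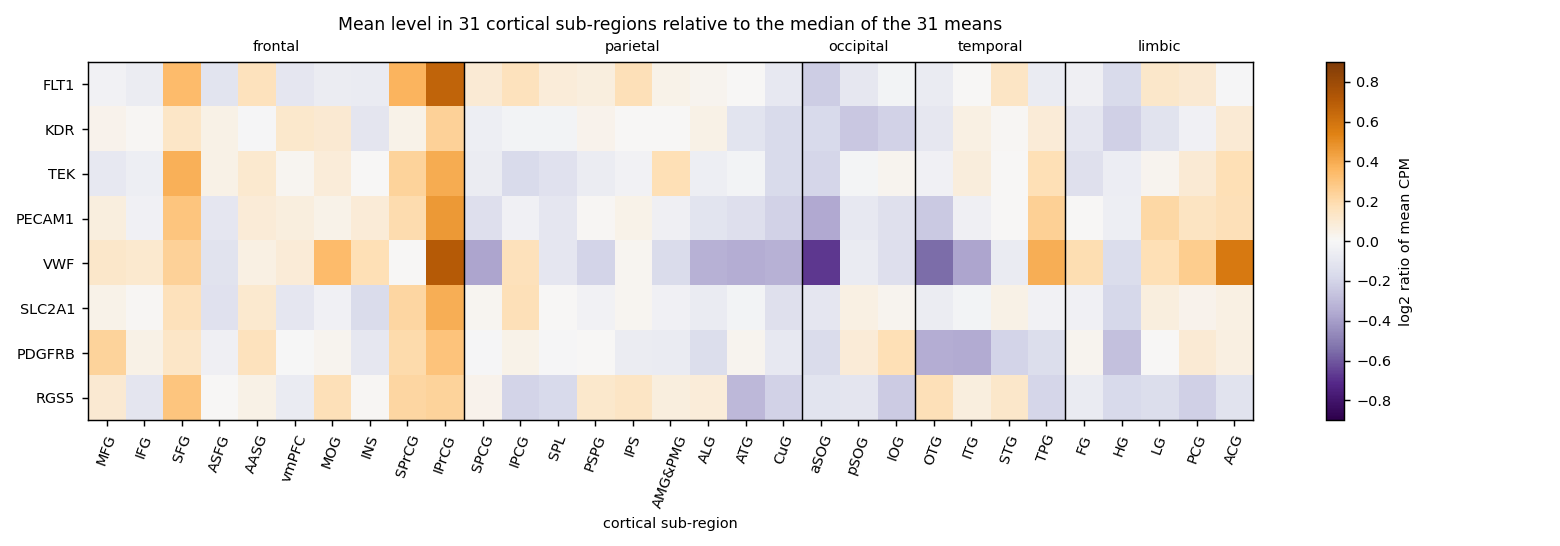
Mean level of each gene (rows) in the 31 cortical sub-regions (columns, ordered by lobe), as the log2 ratio to the median of the 31 means. Orange is above and purple below that median. IPrCG, in the frontal lobe, is the darkest orange column, with VWF at a mean of 16.7 CPM, and aSOG, in the occipital lobe, is among the purple ones.

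In the striatum the nucleus accumbens (ACb) was set apart from the caudate nucleus (CN) and the putamen (PUT). RGS5 lay between 15.0 and 51.05 CPM in ACb (median 33.3), between 42.3 and 98.5 CPM in CN (median 62.1) and between 48.1 and 110.3 CPM in PUT (median 67.2), and it was lowest in ACb in 8 of 8 animals against either. The ranges overlapped only at the edges. The log2FC against ACb was 1.11 ± 0.17 (SE, FDR = 6.92e-05) in CN and 1.23 ± 0.17 (SE, FDR = 5.30e-06) in PUT. Without animal 3 the CN value fell to 1.00, just under 2-fold. FLT1 lay between 23.6 and 48.4 CPM in ACb (median 30.7) and between 42.2 and 85.9 CPM in PUT (median 53.6), higher in 8 of 8 animals, with a log2FC of 0.87 ± 0.16 (SE, FDR = 0.000168). SLC2A1 was higher than in ACb in 8 of 8 animals in both CN (0.39 ± 0.08 SE, FDR = 0.00137) and PUT (0.56 ± 0.08 SE, FDR = 1.35e-05). KDR rose in CN (0.69 ± 0.16 SE, FDR = 0.00254) and PUT (0.67 ± 0.16 SE, FDR = 0.00160).

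Over the 3 striatal sub-regions 7 of the 8 genes differed, beside 55.6% of all genes, and PDGFRB did not (FDR = 0.681), at 38.6 to 58.3 CPM in ACb and 36.8 to 65.8 CPM in PUT. Of the 8 genes 5 were higher in CN than in ACb, beside 16.7% of all genes, and 7 in PUT than in ACb, beside 22.2%, and none lower, beside 16.8% and 22.2%. None differed between PUT and CN, by edgeR, and 0 had an unadjusted p under 0.05, beside 14.8% higher and 14.7% lower of all genes by FDR. Without animal 6 the striatal count fell to 4, with VWF (FDR = 0.0521), PECAM1 (FDR = 0.0538) and TEK (FDR = 0.107) past the threshold no more, and without the animal block it was 5. These genes also missed it without other animals. TEK did so without animal 3 (FDR = 0.0732), 7 (FDR = 0.0963) or 10 (FDR = 0.0560). VWF did so without animal 7 (FDR = 0.0671) and PECAM1 without animal 8 (FDR = 0.0550). Of 12 other general endothelial genes 9 were higher in PUT than in ACb and 0 lower (median 0.44), and of the other pericyte genes 3 and 0 (median 0.40). Oligodendrocyte markers summed to 12479 to 21081 CPM in PUT, 3511 to 7923 CPM in CN and 2230 to 7145 CPM in ACb. Their part was not tested.

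In the hippocampus the dentate gyrus (DG) was lower than the CA fields. RGS5 lay between 8.53 and 29.1 CPM in DG (median 19.8), between 16.8 and 40.4 CPM in CA1 (median 28.1) and between 15.0 and 54.4 CPM in CA3 (median 36.2). FLT1 lay between 13.6 and 32.7 CPM in DG (median 20.7) and between 23.6 and 36.6 CPM in CA1 (median 28.9). The groups overlapped, but within an animal DG was below CA1 in 8 of 8 animals for FLT1, PECAM1, SLC2A1 and RGS5, in 7 for KDR, TEK and PDGFRB and in 6 for VWF. By the test all 8 genes were lower in DG than in CA1, beside 15.5% of all genes, and 6 were lower than in CA3, beside 15.6%, with KDR and PDGFRB not passing there. The log2FC of RGS5 was −0.62 ± 0.14 (SE, FDR = 0.00213) against CA1 and −0.83 ± 0.14 (SE, FDR = 0.000311) against CA3, and that of FLT1 was −0.49 ± 0.11 (SE, FDR = 0.00242) and −0.57 ± 0.11 (SE, FDR = 0.000765). No pair reached 2-fold. CA3 and CA1 gave 0 calls among the 8 genes by edgeR and 0 with an unadjusted p under 0.05, beside 0.0129% of all genes higher and 0.0194% lower by FDR.

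Over the 3 hippocampal sub-regions 6 of the 8 genes differed, beside 31.6% of all genes, and without the animal block none did, with FDR of 0.0626 for RGS5 and 0.0639 for FLT1. Of the other general endothelial genes 9 were lower in DG than in CA1 and 0 higher (median −0.65), of the barrier genes 7 and 1 (−0.45), and of the other pericyte genes 4 and 1 (−0.44). Oligodendrocyte markers were lower in DG as well, at 1508 to 3106 CPM against 3361 to 8627 CPM in CA1, and neuron markers were at 5491 to 9739 CPM against 8336 to 11327 CPM. Of 5 choroid plexus markers 3 were higher in DG than in CA1 and 0 lower. Their part was not tested. Between the vermis (CBV) and the cerebellar cortex (CBC) no gene of the set passed, beside 0.841% of all genes, and by the same test FLT1 (0.26 ± 0.10 SE, FDR = 0.305) and PECAM1 (−0.30 ± 0.12 SE, FDR = 0.339) had an unadjusted p under 0.05.

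**Figure D4:**
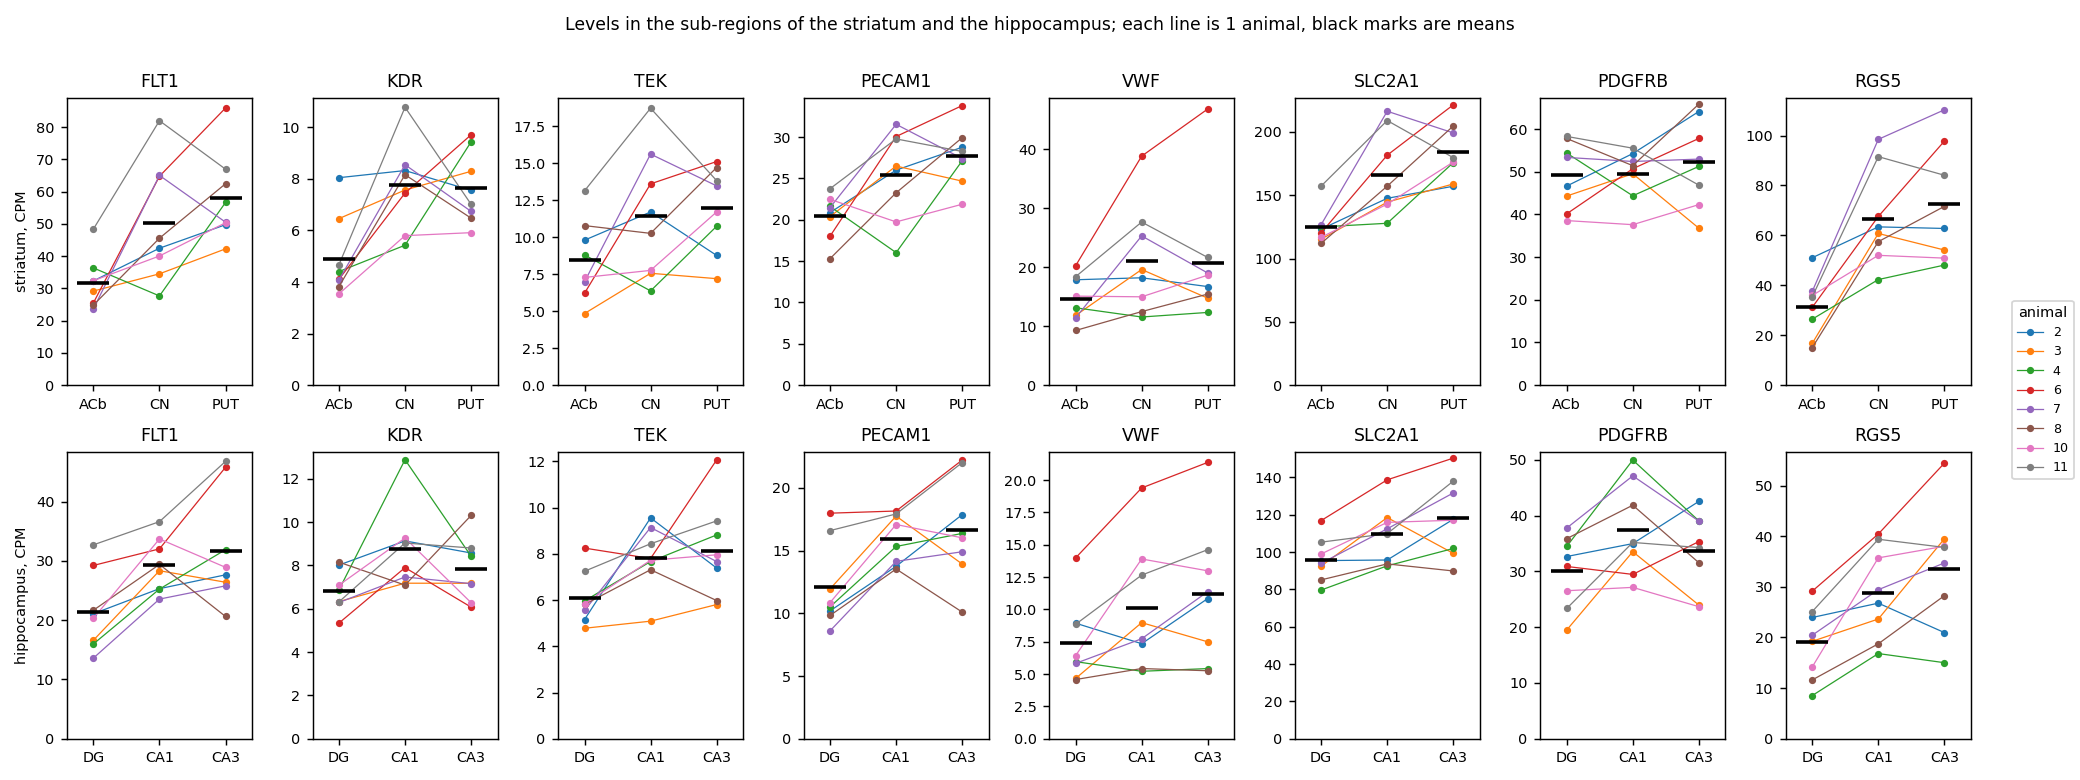
CPM of the 8 genes in the sub-regions of the striatum (upper row) and the hippocampus (lower row), with 1 coloured line per animal and black marks for means of 8 animals. RGS5 and SLC2A1 are lower in ACb than in CN and than in PUT in every animal, and most lines climb from DG to CA1.

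Animals differed as well as regions, most of all in VWF. Over the 51 sub-regions 46.98% of its variance on the log2 scale lay between sub-regions and 36.4% between animals, and over the 31 cortical sub-regions 17.5% and 63.6%. The animal share was 11.4% for KDR, 13.5% for PDGFRB, 18.2% for PECAM1, 19.3% for RGS5, 20.0% for FLT1 and 27.3% for TEK, beside a median of 10.4% over 14771 genes. VWF was highest in animal 6 in 15 of the 16 groups, the exception being PA, where animal 11 was highest. The mean over sub-regions of log2(CPM + 1) of VWF was 4.51 in animal 6 and 3.10 in animal 4, 1.40 apart. FLT1 was highest in animal 11 in 11 groups and TEK in 9, PDGFRB was highest in animal 8 in 7 groups, and RGS5 was highest in animal 6 in 7. Nothing in the labels used here other than sex and age tells these animals apart.

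**Figure D5:**
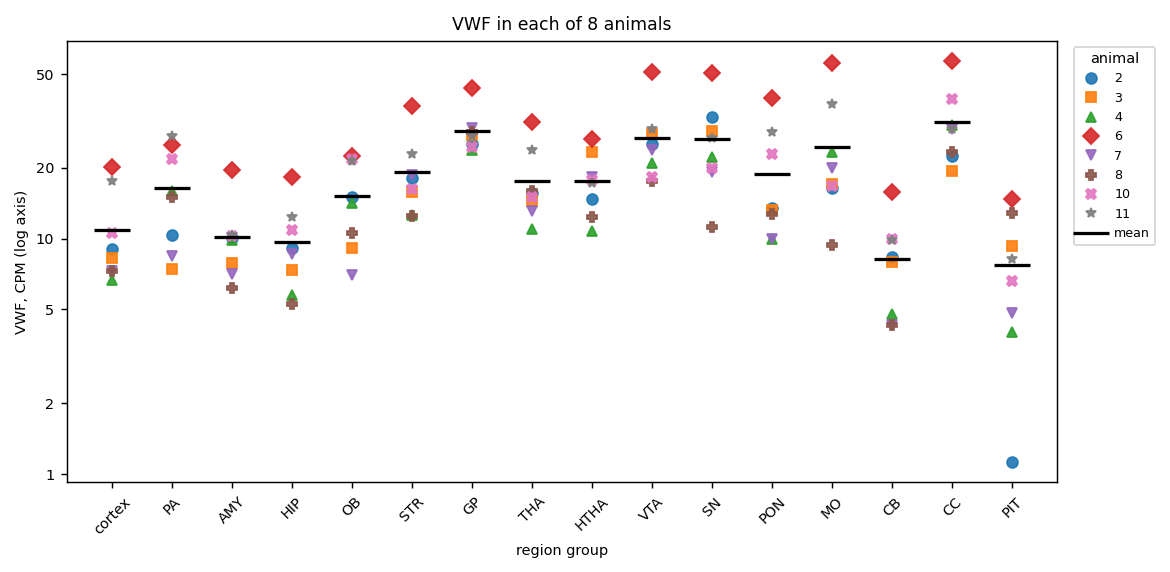
VWF level (CPM, log axis) in the 16 region groups, with 1 symbol and colour per animal and a black mark for the mean of 8 animals. Animal 6 is the highest point in 15 of the 16 groups, at 43.8 CPM in GP against 29.6 CPM in the next animal.

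Mid-aged animals were compared with young ones, and females with males, in each group, 4 against 4, with the other factor as a covariate. For age 0 of the 128 pairs of a gene and a group were called by edgeR at FDR < 0.1 and over 2-fold, beside 0.0153% of the pairs over all genes, and DESeq2 called 1, TEK in SN. At an unadjusted p under 0.05 there were 20 pairs, 19 of them higher in mid-aged animals, beside 5.73% of the pairs over all genes. VWF made up 7 of the 20, and the pairs share the same animals. Of these 20, 6 were in the substantia nigra, where 11% of all genes had such a p. TEK lay at 14.9, 15.3, 17.6 and 17.8 CPM in the mid-aged and at 7.55, 7.61, 8.13 and 8.84 CPM in the young animals. FLT1 lay at 68.2 to 76.1 CPM in the mid-aged and at 38.4 to 48.5 CPM in the young. PECAM1 (35.9 to 44.6 against 20.4 to 32.96 CPM), VWF (26.7 to 50.4 against 11.2 to 22.1 CPM) and RGS5 (54.6 to 87.5 against 20.6 to 46.7 CPM) did not overlap either, while KDR, SLC2A1 and PDGFRB did. KDR lay at 8.30 to 12.96 CPM in the mid-aged and at 4.80 to 8.60 CPM in the young. The log2FC was 1.04 ± 0.18 (SE, FDR = 0.401) for TEK, 1.00 ± 0.27 (SE, FDR = 0.401) for RGS5, 0.96 ± 0.24 (SE, FDR = 0.401) for VWF and 0.69 ± 0.14 (SE, FDR = 0.401) for FLT1 by edgeR. With DESeq2 the FDR was 0.000371 for TEK, 0.00398 for FLT1, 0.0531 for VWF, 0.0548 for PECAM1 and 0.0632 for RGS5, the last 4 with differences under 2-fold.

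The median of the 8 genes in the substantia nigra was 0.72 and that of all genes was 0.00. The 12 other general endothelial genes had a median of 0.38 there and the 9 other pericyte genes −0.08, with 0 genes of either list past the threshold. The substantia nigra differed with age in other markers. Astrocyte markers summed to 6632 to 8068 CPM in mid-aged and 3978 to 5933 CPM in young animals, without overlap. The fibroblast and meningeal list summed to 304 to 338 CPM and 235 to 271 CPM, also without overlap. Its highest gene in the substantia nigra was PDGFRA (mean 141 CPM), which oligodendrocyte precursors also express. The part of these markers was not tested. Over the 16 groups the log2FC of VWF with age was positive in 16, with a median of 0.58, and without animal 6, a mid-aged female, it was positive in 13, with a median of 0.40. These groups share the same animals, so they are not separate observations.

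For sex 0 of 128 pairs were called by edgeR, beside 0.103% over all genes, and DESeq2 called 1, VWF in PA. At an unadjusted p under 0.05 there were 18 pairs, 17 of them higher in females, beside 3.56% over all genes, and 8 of these were VWF. In PA, VWF lay at 15.9, 21.8, 24.95 and 27.2 CPM in females and at 7.46, 8.44, 10.3 and 15.1 CPM in males, without overlap. The 3 microglia markers also separated the sexes in PA, at 138 to 164 CPM in females and 100.5 to 118 CPM in males, and the 6 smooth muscle markers summed to 117 to 229 CPM (median 190) and 28.6 to 182 CPM (median 60.5), and their part was not tested. The log2FC of VWF was 1.12 ± 0.24 (SE, FDR = 0.381 by edgeR, 0.00577 by DESeq2), and without animal 8 it was 1.40 (FDR = 0.0199). VWF was positive in 16 of 16 groups with a median of 0.62, and without animal 6 it was positive in 13 with a median of 0.41. All groups share the same animals, so they are not separate observations. Animals 6 and 11, both high in VWF in the cortex, are mid-aged females, so the age and sex contrasts share them. KDR in the pituitary lay at 29.9, 42.7, 43.8 and 54.4 CPM in females and at 23.05, 24.1, 26.4 and 29.7 CPM in males (0.75 ± 0.18 SE, FDR = 0.221 by edgeR). It was 0.67 without animal 6 and 0.88 without animal 11, both female, and under 2-fold where the FDR passed, with DESeq2 (FDR = 0.0225) and without animal 7 (FDR = 0.0138). Anterior pituitary markers summed to 30892 to 350642 CPM in the females (median 143973) and 30269.9 to 85237.5 CPM in the males (median 38507), and their part was not tested. It was among the pairs with an unadjusted p under 0.05, as were 21.2% of all genes in the pituitary, and without TMM scaling the median gene moved by −0.23 between the sexes there. Without animal 7, TEK (1.08) and RGS5 (1.74) in the pituitary were called, and without animal 4, VWF in PON (1.23).

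Across the 51 sub-region means of log2(CPM + 1), which share the animals, Pearson's r between the 8 genes ran from −0.33 for KDR with RGS5 to 0.91 for TEK with PECAM1, with a median of 0.58 over 28 pairs. PECAM1 and VWF were at 0.88 and the pericyte pair, PDGFRB and RGS5, at 0.41. FLT1 and KDR were at −0.23, and at 0.34 once the pituitary was left out, when all 28 pairs were positive (0.16 to 0.91). Of the deviations of the single samples from their sub-region and animal means, r ran from −0.13 for the pericyte pair to 0.65, with a median of 0.37. Samples that deviate together share a library, so these values are descriptions.

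The genes most like each in pattern were ranked by r over the 51 means among 12114 genes with a symbol and enough counts. For PECAM1 they were CDH5 (0.96), DOCK6 (0.94) and TNFSF10 (0.93), and for TEK they were CDH5 (0.89), NOTCH4 (0.88), a Notch receptor of endothelium, and CD34 (0.87). VWF was closest to HHEX (0.93), FLI1 (0.93), an endothelial and blood transcription factor, and LIMS2 (0.92). SLC2A1 was closest to ABCB4 (0.95), DIPK2B (0.95) and CDC45 (0.94), FLT1 to FGR (0.90), SRARP (0.89) and RERGL (0.85), and KDR to TRIM6 (0.91), PARP12 (0.90) and FZD6 (0.90). The pericyte genes had other neighbours, PDGFRB with RGCC (0.82), FAM89A (0.82) and TBX1 (0.81), and RGS5 with LGI3 (0.90), PCDH9 (0.86) and EPB41L2 (0.84). Without the pituitary the first neighbours were ADGRF5 (0.88) for FLT1, BST2 (0.86) for KDR, CGNL1 (0.91) for TEK, TNFSF10 (0.96) for PECAM1, SLCO2B1 (0.94) for VWF, DIPK2B (0.96) for SLC2A1, ALDH4A1 (0.84) for PDGFRB and TMEM192 (0.85) for RGS5, so that the first-ranked gene differed for each of the 8.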

How the data were processed

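Per the labels and the methods, the authors checked reads with FastQC 0.11.4, used Trim Galore 0.4.4 only where a sample read poorly, mapped all reads to Mmul 8.0.1 with HISAT2 2.0.5 and counted them on Ensembl 91 genes with HTSeq 0.6.1. The deposited values are raw counts per gene. Strand and overlap options are not given in the sources used here, so reads of overlapping genes could not be told apart. Symbols were matched for 17572 of 30807 genes through a reference table. Counts of a region group were summed within each animal. Tests used edgeR 4.0.16 (R 4.3.3, limma 3.58.1) with filterByExpr, TMM factors and quasi-likelihood F tests, adjusted by Benjamini-Hochberg. The SE is the absolute log2FC over the square root of F. DESeq2 1.42.0 was an alternative. Tests between regions had the animal, given by the labels, as a block; animals explained a median of 10.4% of the variance of log2 levels over 14771 genes, which is the check of this pairing. The tests were checked on simulated data. The simulated counts had no differences between animals and only changes over 2-fold, so this check does not cover smaller differences or the pairing by animal. Python 3.11.15, numpy 2.4.6, pandas 2.3.3, scipy 1.17.1 and matplotlib 3.10.9 made levels, exact tests and figures, with a pseudocount of 1. The genes and lists were chosen with earlier results of these data known. The rule named, from each list, up to 3 genes per direction with the largest change among its calls over 2-fold, and the 3 genes most like each gene (mean of at least 1 CPM); list genes under 2-fold or not passing were chosen after their values were seen. Midbrain (8 samples) and ATAC-seq (33 samples) were not analysed here, and no sequences or coordinates are given.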

Additional observations from a re-analysis of the deposited data

Results flagged for a closer look

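In 11 of 128 groups of 8 animals (8 genes in 16 region groups), 1 animal's level stood apart from the others by Dixon's criterion at 95%, and chance flags about 1 in 20 groups. Groups share the animals, so the flags are not independent. Animal 6 was the high one for VWF in AMY (19.6 CPM, next 10.3), GP (43.8, next 29.6), STR (36.5, next 22.8) and VTA (50.9, next 29.1), and for TEK in PIT (21.3, next 13.03). Animal 11 was the high one for TEK in PA (17.4, next 11.9), PON (19.3, next 13.5) and the cortex (13.9, next 9.57) and for PECAM1 in the cortex (28.3, next 20.6). In the pituitary, animal 2 was the low one for PECAM1 (12.8, next 22.7) and animal 8 the high one for PDGFRB (43.7, next 26.5). For no gene did every animal of one sex or age stage lie above its own cortex in a region group while every animal of the other lay below it.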

How the results depend on the processing

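No value changed direction where it was called. A fold above 4 left 1 higher and 1 lower pair of the 8 and 5 against the cortex (KDR and RGS5 in PIT), and FDR alone gave 54 and 20. Without 1 animal the counts lay between 7 and 9 higher and 4 and 5 lower, 8 and 8 of the 8 genes between region groups, 4 and 5 for the occipital lobe, 4 and 7 for the striatum (4 without animal 6), 6 and 7 for the hippocampus, 0 and 0 for the cerebellum, 1 and 2 pairs over 2-fold between sub-regions (1 without animal 3), 0 and 0 for age, and 0 and 2 for sex (1 without animal 4, 2 without animal 7, 1 without animal 8). DESeq2 called 1 pair for age and 1 for sex. The cause was not tested.

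Without the replicate block, the pairing by animal, 9 pairs were higher and 5 lower than in the cortex, and the genes past the threshold were 8 between region groups, 4 of 7 between cortical sub-regions, 0 of 4 in the occipital lobe, 5 of 7 in the striatum, 0 of 6 in the hippocampus and 0 in the cerebellum. Library totals without TMM moved the median gene against the cortex by 0.24 in OB, 0.20 in HTHA and 0.17 in PIT, and VWF in HTHA then reached 1.00. PECAM1 in GP was at 1.00 without animal 11. RGS5 in CB passed 2-fold under the study's detection rule (−1.05) and without animal 3 (−1.06). PECAM1 in VTA was at 1.02 with DESeq2 and with its size factors, 1.03 with library totals, 1.00 without the block and 1.008 without animal 6. In the occipital lobe TEK passed without animal 7 (−0.13). Lowest counts of 12 to 34 in a single sample limit VWF, KDR, RGS5 and TEK. They were found in the pituitary of animal 2 for VWF and RGS5, in CBC of animal 7 for KDR and in the posterior cingular gyrus of animal 4 for TEK.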
